A study of Mus musculus with 6 samples.

Results

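The motile cilia genes examined here are 48 genes listed by name for the axoneme of motile cilia, the proteins that assemble it and the transcription regulators that switch it on. They were found in the deposited count table by their symbols. Of the 48, 47 had a row and all 47 passed the filter on low counts, among 19199 genes tested of 49568 gene symbols. Cfap65 was not analysed here. Whole lungs of 6 female mice on a C57BL/6 background, 4 months old, were sequenced as one poly(A) library per mouse. The 3 TNF-Tg mice carry a human TNF transgene of a line with a single copy, which makes TNF in excess and gives arthritis with pulmonary vascular disease, and the 3 WT mice are wildtype littermates without it. The promoter and the cells that drive the transgene are not given in the sources used here. The comparison of TNF-Tg with WT lungs asks how lung transcripts differ in this disease model.

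Motile cilia are the beating hairs of the multiciliated cells that line the airways, and their beat carries mucus out of the lung. Each cilium is built on an axoneme of doublet microtubules around a central pair, on which outer and inner dynein arms produce the force, nexin-dynein regulatory complexes link the doublets, and radial spokes pass signals from the central pair. Multiciliated cells arise from airway progenitors through GMNC and MCIDAS, then FOXJ1 and the RFX factors, and mutations in many of these genes cause primary ciliary dyskinesia in people.

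The total counts per lung were between 25396923 and 32529408, and the detection floor taken here, 3 counts, stood at 0.0922 to 0.118 CPM (counts scaled to library size). The floor allows for counting error only. Lung markers were abundant in all 6 lungs, with at least 286171 counts of the surfactant gene Sftpc in each, although the labels give the cell type as primary cells. A pair of libraries stood apart. In TNF-Tg 1 the gene Gm42418 took 5.22% of the counts, and elsewhere 0.0774% to 0.274%. WT 1 held genes of squamous epithelium and skeletal muscle, with 56570 counts of Krt4 against at most 8 elsewhere. Counts of members and of marker lists are also given without both. Labels give one library per mouse, and p-values measure the spread between these mice.

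The sequences just upstream of the members were read first, because RFX factors bind a motif called the X-box and many ciliary promoters hold it. A promoter of 250 bases before to 50 bases after the start, taken from RefSeq on GRCm38.p6, was matched for 39 of the 48 members, and the promoters of Foxj1, Dnaaf1, Dnah3, Rsph1, Rsph4a, Cfap53, Cfap54, Cfap65 and Tppp3 were not used here. The 6 letters GTTGCC, the conserved side of an X-box, were found on either strand in 19 of the 39 members (48.7%), in 14.1% of the 27025 genes of the promoter table, in 55.7% of the 70 other motile cilia genes matched and in 43.8% of the 32 intraflagellar transport and BBS genes matched. The palindromic form GTTNCCNNGNAAC was found in 3 members (7.69%) against 0.777% of all genes, and GTTNCCNNNGNAAC in 6 members (15.4%) against 0.936%. These forms were counted on either strand and may overlap GTTGCC. The following stretches, written 5′ to 3′ on the gene's own strand, end before the RefSeq start and are shown because they hold a match in the promoters of both neighbouring regulators, of a dynein heavy chain, of a central pair protein and of doublet wall proteins. Capitals mark a single match in each stretch. The Spag16 and Tekt1 stretches also hold, in lower case, a GTTGCC match on the opposite strand.
Mcidas, chr13:112993649-112993702, plus strand: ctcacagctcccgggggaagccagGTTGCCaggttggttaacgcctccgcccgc
Ccno, chr13:112987559-112987612, plus strand: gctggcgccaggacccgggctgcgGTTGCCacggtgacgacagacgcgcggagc
Dnah9, chr11:66168597-66168657, minus strand: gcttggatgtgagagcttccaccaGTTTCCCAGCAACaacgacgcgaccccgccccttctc
Spag16, chr1:69826843-69826904, plus strand: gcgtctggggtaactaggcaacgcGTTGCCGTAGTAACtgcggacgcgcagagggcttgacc
Tekt1, chr11:72361883-72361921, minus strand: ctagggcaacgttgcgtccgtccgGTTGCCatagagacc
Tekt2, chr4:126325689-126325741, minus strand: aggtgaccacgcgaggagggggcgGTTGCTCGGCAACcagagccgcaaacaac
Mns1, chr9:72438433-72438486, plus strand: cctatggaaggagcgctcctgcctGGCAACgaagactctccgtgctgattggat
The first capital lay 195 bases before the start of Mcidas, 219 before that of Ccno, 82 before that of Dnah9, 103 before that of Spag16, 15 before that of Tekt1, 29 before that of Tekt2 and 72 before that of Mns1. These distances are to the RefSeq starts of the promoter table. The gene positions given elsewhere span all GENCODE transcripts, and in Mns1 and Tekt1 the outermost GENCODE start lies further upstream, so their stretches fall inside that span, outside any annotated exon. In Mns1 and Tekt2 the match lies on the opposite strand, and in Mns1 it is therefore read as GGCAAC. The forkhead core TAAACA, the kind of site that FOXJ1 binds, was found in 9 of the 39 members (23.1%) and in 15.1% of all genes, and its longer form GTAAACA, which contains it, in 5.13% and 4.05%. For comparison, the general promoter letters CCAAT were found in 48.7% of the members and 41.1% of all genes, and TATAAA in 12.8% and 15.7%. In TNF-Tg lungs the median log2 fold change was -1.57 in the 19 members that hold GTTGCC and -1.66 in the matched members that do not.

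Motile cilia genes were lower in TNF-Tg lungs. Of the 47 members tested, 45 (95.7%) fell, none rose and 2, Ccno and Dnaaf3, did not pass the cutoff of edgeR's quasi-likelihood test at an adjusted p of 0.05, where 23.4% of all genes tested fell and 24.0% rose. Each of the 45 fell by at least a factor of 2 (log2 fold change of -1 or less), as did 12.2% of all genes. All 3 TNF-Tg lungs lay below all 3 WT lungs in 46 members, every one but Dnaaf3, a pattern that 28.2% of all genes showed. The median log2 fold change of the members was -1.60, that is 3.03-fold lower, against 0.03 over all genes tested. Adjusted p-values of the 45 ran from 2.71e-05 for Dnah6 to 0.0441 for Lrriq1. In whole lung, fewer multiciliated cells and less RNA of these genes per cell cannot be told apart. Without TNF-Tg 1 and WT 1, an alternative chosen after seeing the data, 45 members were lower, with a median of -1.97, Ccno being called (adjusted p = 0.00938) and Lrriq1 not (0.122). In that fit 3375 of all 19440 genes tested were lower.

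**Figure D1:**
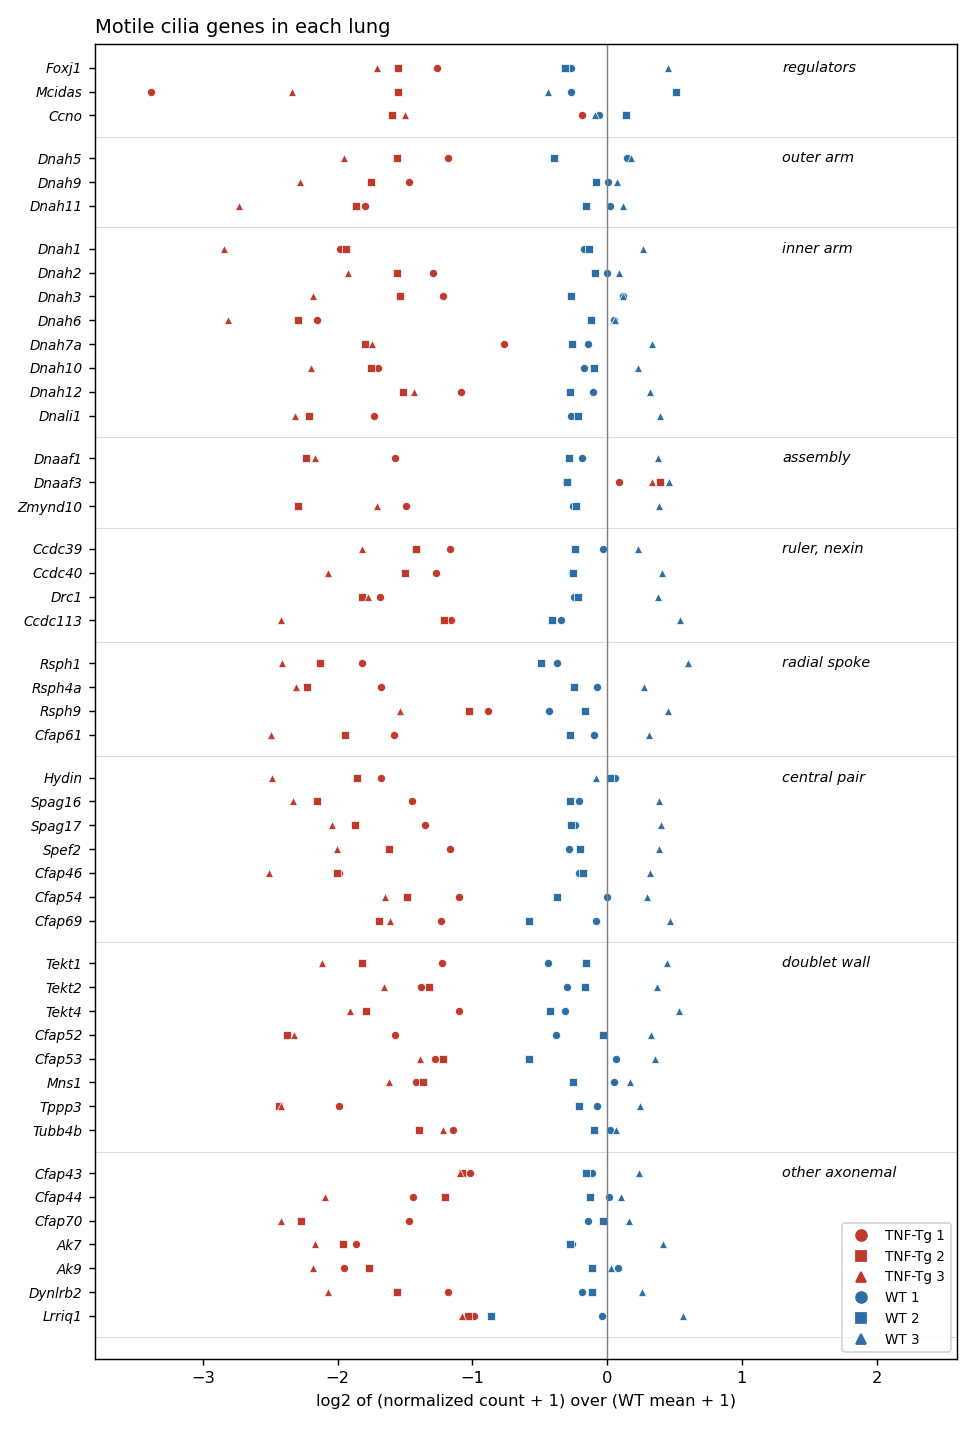
Level of each tested motile cilia gene in each of the 6 lungs, as log2 of the normalized count plus 1 over the WT mean plus 1, with red symbols for TNF-Tg and blue for WT lungs. Red symbols lie to the left of all blue ones in 46 of 47 genes, and Dnaaf3 is the gene in which they overlap.

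Summed over the 47 members, the level was 23197, 19593 and 17559 normalized counts (counts scaled to a common library size) in TNF-Tg 1, 2 and 3 and 59087, 55265 and 73512 in WT 1, 2 and 3, a ratio of means of 0.321. The groups did not overlap, and WT 3 stood above the other WT lungs. WT 3 held the highest level of all 6 lungs in 43 of 47 members, the exceptions being Mcidas and Ccno, highest in WT 2, and Hydin and Ak9, highest in WT 1. TNF-Tg 3 held the lowest level in 35 members. Within the TNF-Tg group the order depended on the scaling, since TNF-Tg 3 was lowest in 35 members after TMM scaling but in 22 after scaling by total counts alone, while WT 3 was the highest WT lung in 43 and 44.

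The regulators head the programme, and 2 of 3 fell. Foxj1 (ENSMUSG00000034227.7, chr11:116330704-116335399, minus strand of GRCm38), the forkhead factor that defines multiciliated cells, had 1228, 1005 and 899 normalized counts in TNF-Tg 1, 2 and 3 and 2439.6, 2372 and 4015 in WT 1, 2 and 3. Every TNF-Tg lung lay below every WT lung. The means were 1044 ± 168 in TNF-Tg and 2942 ± 929 in WT lungs (mean ± SD, n = 3 each), a 2.82-fold fall (log2 fold change -1.50, SE 0.22, adjusted p = 0.000935). Mcidas (chr13:112993845-113000394, plus strand), the nuclear protein that commits progenitors to multiciliation, was scarce, with 1, 7 and 4 raw counts in TNF-Tg 1, 2 and 3 and 20, 35 and 19 in WT 1, 2 and 3. It fell with a wide error (log2 fold change -2.41, SE 0.55, adjusted p = 0.00764), and its log2 fold change ran from -3.04 without TNF-Tg 2 to -2.05 without WT 2. Ccno (chr13:112987802-112990777, plus strand), an atypical cyclin needed to multiply the centrioles that seed cilia, lies 3067 bases upstream of Mcidas on the same strand and had 49, 23 and 27 raw counts in TNF-Tg 1, 2 and 3 and 74, 85 and 78 in WT 1, 2 and 3. Its groups did not overlap, but the difference did not pass the cutoff (log2 fold change -0.98, SE 0.39, adjusted p = 0.0674). TNF-Tg 1 held the highest Ccno level of its group, and without that lung the log2 fold change was -1.61 with an adjusted p of 0.00396.

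The outer dynein arm heavy chains Dnah5, Dnah9 and Dnah11, the motors that set beat frequency, all fell (median log2 fold change -1.80). Dnah11 (chr12:117877982-118199043, minus strand) had 274, 262 and 143 normalized counts in the TNF-Tg lungs against 968, 854 and 1037 in the WT lungs. TNF-Tg 3 was the lowest, and the WT lungs lay close together. This was a 4.23-fold fall, the largest of the 3 (log2 fold change -2.08, SE 0.24, adjusted p = 0.000266). Dnah5 (chr15:28203752-28472052, plus strand), a frequent cause of human ciliary dyskinesia, had 530.1, 407 and 309.6 normalized counts in the TNF-Tg lungs against 1331, 916 and 1361 in the WT lungs. Its groups did not overlap, and its fall was the smallest of the 3, at 2.9-fold (log2 fold change -1.54, SE 0.22, adjusted p = 0.000903). Dnah9 lay between them at -1.80.

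All 8 inner arm genes fell as well, with a median of -1.73. Dnah6 (chr6:73017606-73221651, minus strand), a single-headed inner arm heavy chain, had 782, 706 and 493 normalized counts in the TNF-Tg lungs against 3606, 3191 and 3629 in the WT lungs. The WT lungs differed little among themselves, and TNF-Tg 3 was the lowest. The fall was 5.27-fold and had the smallest adjusted p of all members (log2 fold change -2.40, SE 0.17, adjusted p = 2.71e-05). Dnah12 (chr14:26693274-26891703, plus strand), another inner arm heavy chain, had 272, 201 and 212 normalized counts in the TNF-Tg lungs against 534, 474 and 718 in the WT lungs and the smallest fall of this group, 2.53-fold (log2 fold change -1.34, SE 0.19, adjusted p = 0.000895). WT 3 was the highest lung there. The log2 fold changes were -2.21 for Dnah1, -1.58 for Dnah2, -1.60 for Dnah3, -1.37 for Dnah7a, -1.87 for Dnah10 and -2.07 for the light intermediate chain Dnali1. Of the 100-base windows of Dnah7a transcripts, 19.1% also occur at another locus, mainly Dnah7c, so its counts are uncertain. Dnah3 has 10.5% of its exon bases opposite Lyrm1.

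Among the 3 genes for dynein preassembly, which takes place in the cytoplasm before the arms are carried into the cilium, 2 fell and Dnaaf3 did not. Dnaaf1 (chr8:119575235-119598454, plus strand) had 121, 76.5 and 80.2 normalized counts in the TNF-Tg lungs against 319, 299 and 473 in the WT lungs, a 3.94-fold fall without overlap (log2 fold change -1.98, SE 0.26, adjusted p = 0.000498), and Zmynd10 had a log2 fold change of -1.80. Of the exon bases of Dnaaf1, 20.7% lie opposite Taf1c. Dnaaf3 (chr7:4522933-4532453, minus strand) had 662, 815 and 783 normalized counts in the TNF-Tg lungs against 503, 506 and 857 in the WT lungs. WT 3 was the highest of the 6 lungs and the other WT lungs were the lowest, so the groups overlapped and no difference was called (log2 fold change 0.28, SE 0.21, adjusted p = 0.32). Without WT 3 the log2 fold change was 0.57 with an adjusted p of 0.00929, the only fit in which a member was called higher. Dnaaf3 shares 86 exon bases (3.87%) on its own strand with Tnni3, the cardiac troponin I gene, whose counts were 751, 1149 and 1035 in TNF-Tg and 2264, 2383 and 2341 in WT lungs, and 12.6% of its exon bases lie opposite Gm15873, with 3 to 9 counts per lung. The part of these overlaps in the Dnaaf3 value was not tested.

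The 4 genes of the ruler and nexin links fell within a narrow range. Drc1 (chr5:30281388-30366695, plus strand), a core subunit of the nexin-dynein regulatory complex, had 270.3, 246 and 255 normalized counts in the TNF-Tg lungs against 735, 751 and 1131 in the WT lungs. The TNF-Tg lungs were all lower, by 3.39-fold on the fitted scale (log2 fold change -1.76, SE 0.18, adjusted p = 0.000169). Ccdc39 (chr3:33812362-33844310, minus strand), which with Ccdc40 forms the ruler that spaces arms and spokes along the doublet, had 282, 237 and 178 normalized counts in the TNF-Tg lungs against 620.2, 536 and 743 in the WT lungs, the smallest fall of the group (log2 fold change -1.45, SE 0.20, adjusted p = 0.000651). Of the exon bases of Ccdc39, 16.9% lie opposite Ttc14. Ccdc40 and Ccdc113 had log2 fold changes of -1.58 and -1.51.

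Radial spoke genes had the lowest median of the role groups, -2.02, and all 4 fell. Rsph1 (chr17:31255019-31277383, minus strand), a protein of the spoke head, had 360.0, 291 and 239 normalized counts in the TNF-Tg lungs against 985, 904 and 1930.0 in the WT lungs. WT 3 stood far above WT 1 and WT 2, and all TNF-Tg lungs were lower still (log2 fold change -2.11, SE 0.30, adjusted p = 0.000879). Rsph9 (chr17:46122035-46144216, minus strand), also of the spoke head, had 327, 297 and 208 normalized counts in the TNF-Tg lungs against 446, 539 and 826 in the WT lungs and had a smaller fitted fall, 2.18-fold (log2 fold change -1.13, SE 0.26, adjusted p = 0.00792). Rsph4a and Cfap61 had log2 fold changes of -2.05 and -1.98.

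Of the central pair genes, all 7 that were tested fell, with a median of -1.74. Cfap46 (chr7:139600951-139683817, minus strand), a large central pair protein, had 294, 292 and 205 normalized counts in the TNF-Tg lungs against 1015, 1036 and 1464 in the WT lungs, a 4.45-fold fall (log2 fold change -2.15, SE 0.20, adjusted p = 9.33e-05). Cfap54 (chr10:92775619-93081618, minus strand), another, had 244, 186 and 166 normalized counts in the TNF-Tg lungs against 524, 405 and 643 in the WT lungs and had the smallest fall of the group (log2 fold change -1.40, SE 0.21, adjusted p = 0.00111). Neither gene's groups overlapped. Hydin, a giant central pair protein that is mutated in a mouse hydrocephalus line, had a log2 fold change of -1.97, Spag16 of -1.95, Spag17 of -1.74, Spef2 of -1.57 and Cfap69 of -1.51.

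The doublet wall group, with the tektin filaments and proteins inside the microtubules, included the most abundant members, and all 8 fell, with a median of -1.52. Tppp3 (chr8:105467493-105471526, minus strand), a tubulin polymerization promoting protein, had 2381, 1751 and 1768 normalized counts in the TNF-Tg lungs against 8992, 8217 and 11212 in the WT lungs. The lowest WT lung was over 3 times the highest TNF-Tg lung, and the fitted fall was 4.82-fold (log2 fold change -2.27, SE 0.17, adjusted p = 3.62e-05). Tubb4b (chr2:25222160-25224702, minus strand), the beta-tubulin that axonemes use but that other cells also make, had 5341, 4498 and 5087 normalized counts in the TNF-Tg lungs against 12011, 11070.4 and 12413 in the WT lungs. It fell the least of its group (log2 fold change -1.25, SE 0.11, adjusted p = 7.93e-05), and 21.0% of its transcript windows also occur elsewhere, mainly at Tubb4b-ps1. Tekt1, Tekt2 and Tekt4 had log2 fold changes of -1.68, -1.45 and -1.57, and Cfap52, Cfap53 and Mns1 of -2.06, -1.30 and -1.47. Of the exon bases of Mns1, 53.0% lie opposite Tex9, whose counts were 148 to 172 in TNF-Tg and 186 to 269 in WT lungs.

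The remaining 7 axonemal genes all fell, with a median of -1.56. Cfap70 (chr14:20394193-20452226, minus strand) had 194, 111 and 100.1 normalized counts in the TNF-Tg lungs against 487, 526 and 602 in the WT lungs, the largest fall here (log2 fold change -2.01, SE 0.25, adjusted p = 0.000428). Lrriq1 (chr10:103046031-103236322, minus strand) was scarce, with 26, 32 and 34 raw counts in TNF-Tg 1, 2 and 3 and 70, 39 and 115 in WT 1, 2 and 3. WT 2 stood close to the TNF-Tg lungs, and the call was the least firm of the 45 (log2 fold change -1.05, SE 0.37, adjusted p = 0.0441), with adjusted p between 0.00997 and 0.138 over the alternatives. Cfap43 and Cfap44 had log2 fold changes of -1.06 and -1.54, the adenylate kinases Ak7 and Ak9 of -2.0 and -1.97, and the dynein light chain Dynlrb2 of -1.56.

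The members did not all fall by the same amount. The SD of the 47 log2 fold changes was 0.46, against a median SE of 0.23 for one gene, and 36 of the 47 lay within 2 SE of the median and 11 beyond. That SD includes Dnaaf3 (0.28), the value furthest from the median of -1.60, which widens it. Between genes, levels were compared as RPKM on the TMM-scaled totals, that is normalized reads per kb of exon. Tubb4b (187 ± 10.9 in WT, 78.8 ± 6.85 in TNF-Tg), Tppp3 (169.6 ± 27.8 and 35.2 ± 6.43) and Dynlrb2 (70.2 ± 12.2 and 23.8 ± 7.15) were highest in WT lungs (mean ± SD, n = 3 each). Foxj1 stood at 37.1 ± 11.7 and 13.2 ± 2.12. Among dynein heavy chains, Dnah6 led in WT lungs with 8.68 ± 0.615, followed by Dnah10 with 4.84 ± 0.742 and Dnah9 with 3.64 ± 0.194, while Dnah5 stood at 2.55 ± 0.526 and Dnah7a was lowest with 0.612 ± 0.14. In TNF-Tg lungs Dnah6 stood at 1.65 ± 0.375 and Dnah10 at 1.33 ± 0.239. Mcidas was the lowest member in both groups (0.323 ± 0.126 and 0.0572 ± 0.0414). The order of levels was nearly kept between the groups, with a Spearman rho of 0.98 across the 47 genes, which share libraries and differ in length. Dnaaf3 moved the most, from rank 12 in WT (9.25 ± 3.03) to rank 5 in TNF-Tg lungs (11.2 ± 1.2).

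**Figure D2:**
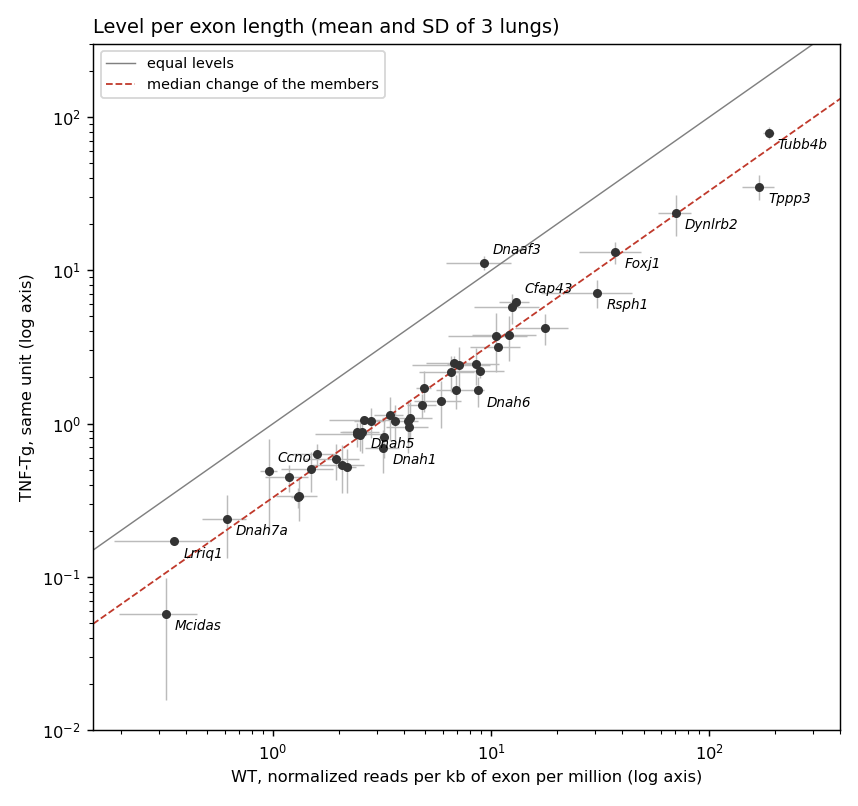
Level per exon length of each tested motile cilia gene in TNF-Tg against WT lungs, in RPKM on log axes, with bars for the SD of 3 lungs. Most genes lie along the dashed line of the median change, 3.03-fold below equality, while Dnaaf3 lies at the line of equal levels.

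Members ranged from 0.556 to 18.0 kb of exon and lay on 19 chromosomes. Across the 47 members, exon length and the log2 fold change had a rho of -0.10, and the WT level per length and the log2 fold change a rho of -0.09. The 13 members with exons of 10 kb or more had a median log2 fold change of -1.80 and the 34 shorter members -1.58. Length did go with differences inside a group. The excess of WT 3 over the other WT lungs was greater in shorter members, with a rho of -0.46 and a median log2 difference of 0.62 in the shorter and 0.30 in the longer members.

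Most motile cilia genes outside the 48 fell as well. Like the members, these genes were listed with earlier results of these data known, so they are no independent check. Of 94 further symbols, some of them alternative names, 80 had a row and 78 were tested, of which 64 (82.1%) fell, 1 rose and 13 did not pass the cutoff. Their median log2 fold change was -1.61. The largest falls were those of Gmnc, which acts upstream of Mcidas (log2 fold change -2.61, SE 0.63, adjusted p = 0.0103, with 1, 8 and 16 raw counts in TNF-Tg 1, 2 and 3 and 54, 86 and 31 in WT 1, 2 and 3), of the tektin Tekt3 (log2 fold change -2.30, SE 0.71, adjusted p = 0.0275) and of the outer arm intermediate chain Dnaic1 (log2 fold change -2.21, SE 0.22, adjusted p = 0.000138). In Gmnc the lowest WT lung lay above the highest TNF-Tg lung. Tekt3 was scarce too, with 4, 1 and 9 raw counts in TNF-Tg 1, 2 and 3 and 15, 16 and 51 in WT 1, 2 and 3. Gmnc in TNF-Tg 1 and Tekt3 in TNF-Tg 2 lay below the floor of 3 counts. The only rise was in Spag6 (log2 fold change 2.41, SE 0.38, adjusted p = 0.00129, with 30, 55 and 31 raw counts in TNF-Tg 1, 2 and 3 and 7, 7 and 11 in WT 1, 2 and 3), while its paralogue Spag6l, a central pair gene, fell (log2 fold change -1.88, SE 0.24, adjusted p = 0.000441). Among the other regulators, Rfx2 (-1.27), Myb (-1.38), Trp73 (-1.73) and Ccdc78 (-1.69) fell. Rfx3, E2f4 and E2f5, which are also used outside multiciliated cells, had log2 fold changes of -0.48 (adjusted p = 0.0597), 0.06 (0.622) and -0.03 (0.900). Dnah8 and Dnah17, dynein heavy chains of the sperm tail, had values of -0.11 (adjusted p = 0.699) and -0.05 (0.918).

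Each member was also set against these other motile cilia genes in the same lung, as its log2 normalized count (plus 1) minus their mean log2. With 3 lungs against 3, the exact two-sided permutation test of one member cannot go below p = 0.1, and 47 members were compared. At that smallest p, 20 members were lower and 2, Dnaaf3 and Cfap43, were higher in TNF-Tg lungs relative to these genes. An unchanged gene reaches that p with a probability of 0.1. The share of all genes tested that reach it was not computed, so the counts only describe the members. The counts also depend on the reference, whose mean includes genes that did not pass the cutoff and Spag6, which rose. The mean differed by -1.37 between TNF-Tg and WT lungs and the median change of the same genes by -1.52. With that median as the reference, chosen after seeing the data, 13 members were lower and 4 higher at the smallest p, and the Foxj1 difference changed sign (0.06). The following values use the mean. Foxj1 lay close to its WT place, at 2.94, 2.94 and 2.92 in TNF-Tg lungs against 2.99, 2.92 and 3.16 in WT lungs (difference -0.09, exact two-sided permutation p = 0.4). Dnah6 stood at 2.29, 2.43 and 2.05 in TNF-Tg lungs against 3.55, 3.34 and 3.02 in WT lungs, without overlap (difference -1.05, exact two-sided permutation p = 0.1). Tppp3 (difference -0.90, exact two-sided permutation p = 0.1) and Dnah1 (difference -0.87, exact two-sided permutation p = 0.1) were among the 20. Mcidas had the second lowest value, with groups that overlapped (difference -0.99, exact two-sided permutation p = 0.3). Dnaaf3 lay on the other side, at 2.05, 2.64 and 2.72 in TNF-Tg lungs against 0.71, 0.69 and 0.93 in WT lungs (difference 1.69, exact two-sided permutation p = 0.1). Cfap43 had a smaller displacement of the same sign (difference 0.32, exact two-sided permutation p = 0.1).

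**Figure D3:**
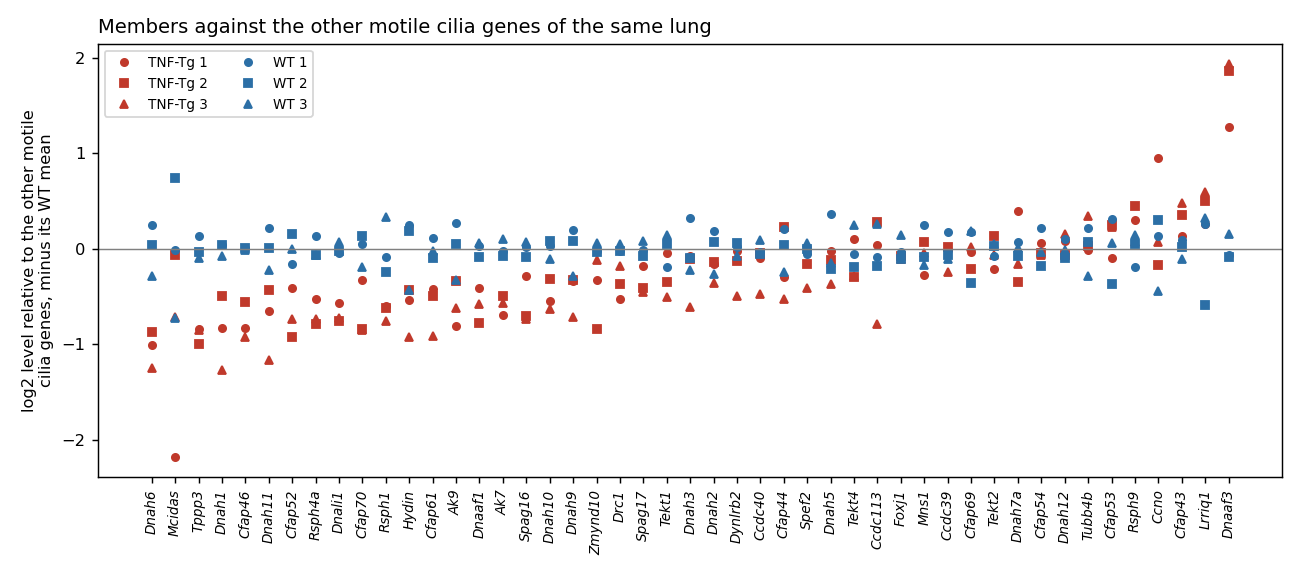
Log2 level of each member relative to the mean of the other motile cilia genes in the same lung, minus its WT mean, with red symbols for the 3 TNF-Tg and blue for the 3 WT lungs. Dnaaf3, at the right, lies above its WT level in all 3 TNF-Tg lungs, with a difference of 1.69, and Dnah6, at the left, lies below it.

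Intraflagellar transport and BBS genes, which build and supply primary cilia as well as motile ones, had a median nearer to 0. Of 37 tested, 18 (48.6%) fell, 1 rose and 18 did not pass the cutoff, where 23.4% of all genes fell and 24.0% rose. The median log2 fold change was -0.42, with a range from -1.17 (Wdr35) to 0.44 (Kif3b, a kinesin-2 motor subunit, adjusted p = 0.00631). Wdr35, a retrograde transport subunit, fell (log2 fold change -1.17, SE 0.17, adjusted p = 0.000785), and so did Ift88 (-0.96), Traf3ip1 (-1.13) and Bbs1 (-1.13). Whether this list differs from the members was not tested.

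**Figure D4:**
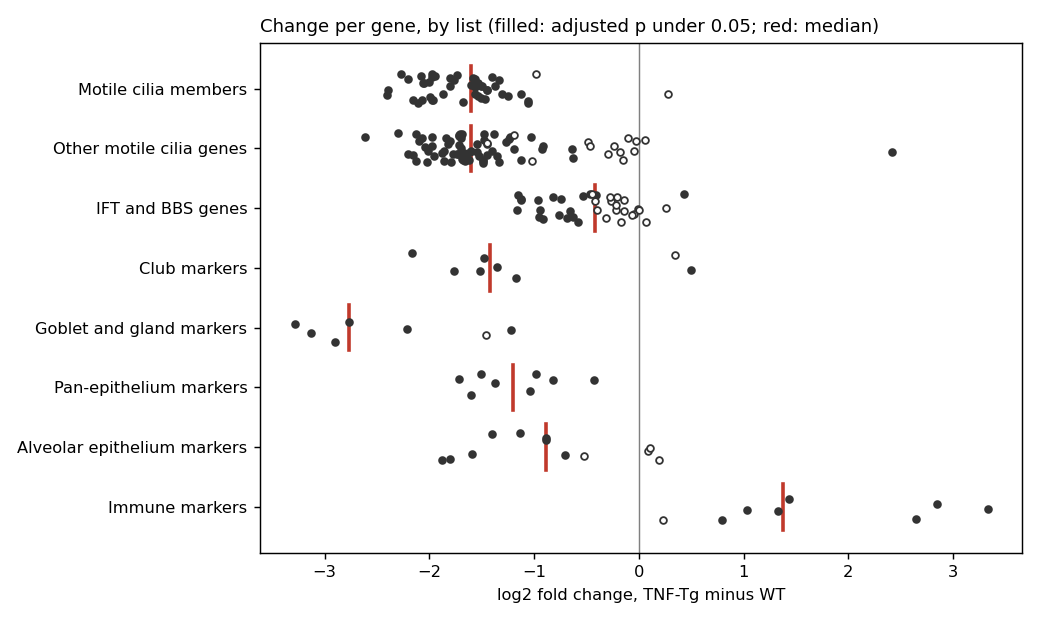
Log2 fold change of each tested gene, TNF-Tg minus WT, by gene list, with filled points for an adjusted p under 0.05 and red bars for the median of each list. The median was -1.60 in motile cilia members, -1.61 in other motile cilia genes, -0.42 in intraflagellar transport and BBS genes and 1.38 in immune markers.

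Most marker lists of other lung cells moved with the members, and a few did not. All 8 pan-epithelial markers, which multiciliated cells share, fell, with a median of -1.20 and a summed level of 12546 to 16015 normalized counts in TNF-Tg and 35877 to 42220 in WT lungs, though Epcam itself fell by only 0.43 on the log2 scale. Of 8 club cell markers, 6 fell and 1, Gsta3, rose (0.49, a call that was lost without WT 1), with a median of -1.42 and a summed level of 249628 to 319756 in TNF-Tg and 629392 to 990613 in WT lungs. Scgb1a1 and Cyp2f2, which define club cells, fell (-1.77 and -2.17). Of 7 goblet and gland markers 6 fell (median -2.77, summed level 4935 to 7769 against 31531 to 46129), and of 12 alveolar epithelial markers 8 fell and none rose (median -0.89, summed level 501789 to 645656 against 761190.4 to 907834). Endothelial markers fell in 7 of 8 with 1 rise (median -1.31, summed level 47928 to 54724 against 114005 to 136760), and fibroblast markers fell in 7 of 8 (median -1.15, summed level 40997 to 43226 against 72465 to 111708). Of 8 immune markers 7 rose, with a median of 1.38 and a summed level of 73156 to 89998 in TNF-Tg and 23369 to 29529 in WT lungs, and Ptprc, the pan-leukocyte gene, had a log2 fold change of 1.43. Neuroendocrine markers were mixed, with 3 of 5 tested lower and 1, Uchl1, higher, and their summed level was higher in TNF-Tg lungs (512 to 572 against 279 to 328). Of the cartilage markers 2 were tested, of which Chad fell (adjusted p = 0.00058) and Comp rose (adjusted p = 0.00373), with a summed level of 363 to 737 against 1841 to 2551. Basal and squamous markers were called lower in 3 of 5 tested and skeletal muscle markers in 3 of 6, but both had their highest sum in WT 1. Without WT 1, 2 of 5 and 1 of 6 were called lower, with medians of -0.84 and 0.38. The 3 neuroendocrine falls were 0 without WT 1 or without TNF-Tg 1. Without both lungs that stand apart, 7 of 8 pan-epithelial, 6 of 8 club, 5 of 7 goblet and gland, 8 of 12 alveolar, 6 of 8 endothelial and 5 of 8 fibroblast markers were lower and 6 of 8 immune markers were higher, while no club marker was higher. On the same lungs 2 of 4 basal and squamous and 1 of 6 skeletal muscle markers were lower, 1 neuroendocrine marker was higher and none lower, and of 2 cartilage markers 1 was lower and 1 higher. The part of these shifts in the fall of the motile cilia genes was not tested.

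Lung by lung, the mean log2 level of the members relative to the mean over the 6 lungs was -0.55, -0.82 and -1.11 in TNF-Tg 1, 2 and 3 and 0.72, 0.64 and 1.14 in WT 1, 2 and 3. The other motile cilia genes, at -0.45, -0.74 and -0.87 and at 0.50, 0.53 and 1.04, had their highest and lowest values in the same lungs. Club markers and pan-epithelial markers likewise had their highest value in WT 3, at 0.78 and 0.74, and their lowest in TNF-Tg 3, at -0.69 and -0.82. Squamous and skeletal muscle markers were high in WT 1, at 3.57 and 5.73 on the same scale, against -0.54 and -1.06 in WT 2, while the members there lay between WT 2 and WT 3.

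**Figure D5:**
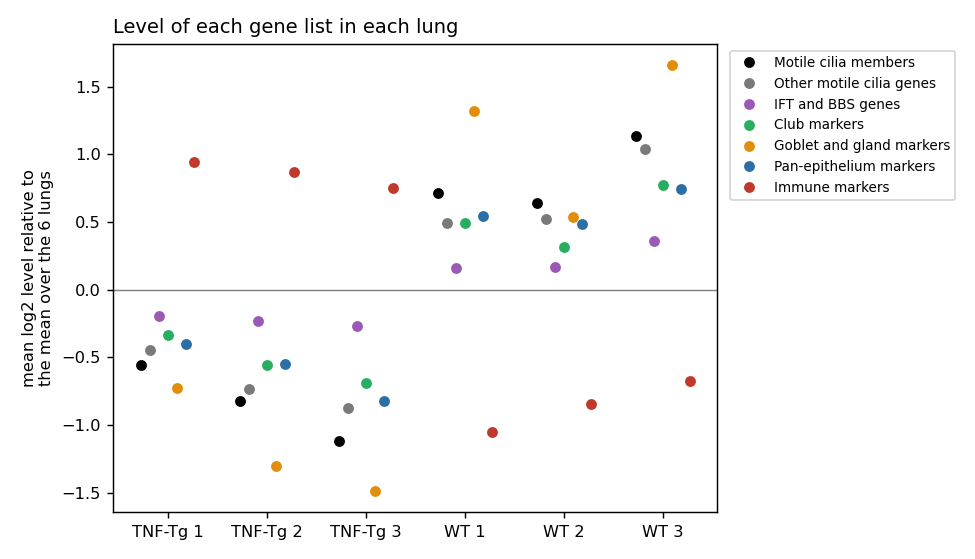
Mean log2 level of each gene list in each of the 6 lungs, relative to the mean over the lungs, with 1 point per list and lung. Motile cilia members lie at -0.55 to -1.11 in TNF-Tg and 0.64 to 1.14 in WT lungs, and immune markers lie on the other side of 0.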

How the data were processed

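Whole-lung poly(A) RNA from 3 TNF-Tg and 3 WT mice was made into stranded libraries and sequenced as single-end reads of 100 bases. Per the labels, the authors used Trimmomatic (version 0.36), STAR (version 2.5.2b), featureCounts and the build GRCm38.p5, and they deposited whole-number counts of reads for every gene symbol in each lung, not normalized. The strand setting and the annotation used in counting are not given in the sources used here. With reads of opposite strands not known to be kept apart, genes that overlap an antisense partner are uncertain.

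Columns were matched to mice by genotype and number. In R (version 4.3.3), edgeR (version 4.0.16) filtered the genes with filterByExpr, scaled them by TMM and compared genotypes, with no other term, in its quasi-likelihood test, and p-values of all 19199 genes were adjusted after Benjamini-Hochberg with a cutoff of 0.05. The SE of a log2 fold change is its size over the square root of F. Normalized counts are counts over the TMM-scaled total times the mean of that total. The members and gene lists were chosen with earlier results of these data known. Full statistics are given for the regulators, for the largest and smallest change of each other role group, for members against the common direction, and for the 3 largest falls and up to 3 largest rises of the other motile cilia genes. Marker genes named were fixed by list, while Krt4 and Gm42418 mark the libraries that stand apart. Other members are given as log2 fold changes. No set test was run.

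Exon lengths, positions and shared 100-base windows come from GENCODE M21 on GRCm38, promoters from RefSeq on GRCm38.p6. Alternatives were DESeq2 (version 1.42.0), limma-voom (limma version 3.58.1), other scalings and filters, a replicate block and each lung left out. On simulated counts of 18958 genes with 200 changed, edgeR made 16 false calls and recovered 80 of 100 genes changed by 1.5 and 98 of 100 changed by 3 on the log2 scale. Far more genes were called in the data, where 23.4% fell and 24.0% rose, so these rates need not hold there. Total counts per lung were 25396923 to 32529408, and counting error is largest for scarce members such as Mcidas.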

Additional observations from a re-analysis of the deposited data

How the results depend on the processing

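The count of members lower in TNF-Tg lungs was 45, 46 with DESeq2 and with total counts as the scaling, 45 with limma-voom, and 44 to 45 with each lung left out in turn. At least 10 counts in every lung gave 44 of 46 tested. Of all genes, 4486 of 19199 were lower in the main fit, 4737 of 34744 with DESeq2, 4201 of 19199 with total counts and 4435 of 19199 with limma-voom. With a lung left out this ran from 3734 of 19607 to 4593 of 19653, and with at least 10 counts in every lung it was 4150 of 17131. No member was called higher except Dnaaf3 without WT 3, so that the count of members called higher ran from 0 to 1. The median log2 fold change ran from -1.87 to -1.47 with one lung left out and was -1.97 without TNF-Tg 1 and WT 1. Ccno passed the cutoff with DESeq2 (adjusted p = 0.0400), limma-voom (0.0256) and total counts (0.0382), and without TNF-Tg 1 or without both lungs that stand apart (0.00938). Lrriq1 lost its call with limma-voom (adjusted p = 0.0870), without TNF-Tg 1, 2 or 3, WT 1 or WT 3, and without both lungs that stand apart (0.122). Of 704 fits of single members, 690 kept direction and side of the cutoff, 6 gained a call and 8 lost one. Among other motile cilia genes the one rise became 0 with at least 10 counts in every lung, which removed Spag6 from the genes tested. A minimum absolute log2 fold change of 1 left 4 of the 18 falls and 0 of the 1 rise of intraflagellar transport and BBS genes. Against that list in place of the other motile cilia genes, the median relative level of the members was -1.17 rather than -0.26, and with the median change of the other motile cilia genes as the reference it was -0.12.

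Under a replicate block, with mice blocked by their number, 44 members were lower, and Lrriq1 lost its call (adjusted p = 0.0816). Of all genes, 3859 of 19199 were lower in that fit. Deviations of same-numbered mice from their group means had correlations of -0.149, -0.00429 and -0.242. The labels do not state whether same-numbered mice are related, and these correlations cannot decide it. Mcidas, Ccno and Lrriq1 rest on at most 115 counts in any lung, and the part of depth in their calls was not tested.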
